A study of Caenorhabditis elegans with 2 samples.

Results

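The 39 genes described here are the protein-coding genes of Caenorhabditis elegans named for translation initiation or elongation factors, out of 19973 protein-coding genes on the nuclear chromosomes. The rule that picks them uses only gene names, those that begin with eif-, ife-, ifg-, eef- or iff-. By name, 31 are initiation factors, 6 are elongation factors, and iff-1 and iff-2 encode eIF5A and were kept apart. The series mapped binding of SKN-1, a stress-response transcription factor, by chromatin immunoprecipitation and sequencing (ChIP-seq) in whole L1 larvae. There was 1 group with 2 biological replicates, and both came from strain OP178 worms of mixed sex. All worms carried the unc-119(ed3) III allele and the integrated transgene wgIs178, which supplies eGFP-tagged skn-1. The labels give the antibody only as skn-1 and do not name the promoter of the transgene. Whole larvae were used, so the cell types in which a site was bound cannot be told apart. The lists hold no ChIP of untagged worms, so the specificity of single peaks was not tested.

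In translation, initiation factors bring the small ribosomal subunit, the initiator tRNA and the capped mRNA together and place the ribosome on the start codon. Elongation factors then deliver aminoacyl-tRNAs and move the ribosome along the message. SKN-1 is related to the Nrf proteins of mammals, and it is known both for activating detoxification genes and for genetic links between reduced translation initiation and stress resistance.

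The authors deposited 3484 optimal peaks for the ce11 assembly, 27729 regions in a list pooled over both replicates, and 30000 regions for each replicate alone. The optimal peaks were exactly the 3484 pooled regions with the highest signal value. Ranks below are by the authors' signal value within a list, with 1 the strongest. A gene was called bound when the summit of an optimal peak fell between 1000 bp upstream and 200 bp downstream of one of its annotated transcript starts, a stretch called the promoter window. Depth is unknown, because the lists give no read counts.

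Sequences from the centres of 6 peaks are shown because they are among the strongest sites of each class and lie outside annotated UTRs. Each is 61 bases of ce11, read 5′ to 3′ on the coding strand of the gene, and the capital letter marks the summit. For the initiation factors they are eif-3.B (chrII:14795124-14795184, plus strand), ife-2 (chrX:382873-382933, minus strand) and eif-1.A (chrIV:4810548-4810608, plus strand). For the elongation factors they are eef-1A.1 (chrIII:6972070-6972130, minus strand) and eef-1A.2 (chrX:7823296-7823356, plus strand), and for eIF5A it is iff-2 (chrII:8561414-8561474, minus strand).
eif-3.B: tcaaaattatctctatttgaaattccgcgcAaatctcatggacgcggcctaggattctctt
ife-2: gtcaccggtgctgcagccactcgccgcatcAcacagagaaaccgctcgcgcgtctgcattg
eif-1.A: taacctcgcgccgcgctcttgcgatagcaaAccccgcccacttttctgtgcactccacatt
eef-1A.1: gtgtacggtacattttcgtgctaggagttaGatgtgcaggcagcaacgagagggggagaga
eef-1A.2: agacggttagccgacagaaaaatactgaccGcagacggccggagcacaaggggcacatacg
iff-2: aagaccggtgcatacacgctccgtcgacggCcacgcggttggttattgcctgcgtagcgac
None of these 6 stretches holds ATCAT or GTCAT on either strand, the core of the known SKN-1 site. Within the same 61 bases, 4 of the 28 peaks at bound translation factor genes hold that core (14.3%), which are 3 of 20 at initiation factors and 1 of 6 at elongation factors, against 21.2% of all optimal peaks.

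Of the 39 translation factor genes, 28 were bound (71.8%), against 15.1% of all protein-coding genes. All 6 elongation factor genes and both eIF5A genes were bound, as were 20 of the 31 initiation factor genes. The share was 64.5% for initiation factors (exact 95% interval 45.4 to 80.8) and 100% for elongation factors (54.1 to 100), and these intervals, which cover the counting of genes only, overlap. The bound initiation factors had a median rank of 1338, with a range of 96 to 3437, and the bound elongation factors had a median rank of 182, with a range of 57 to 838. The ranges overlap, and the median over all 3007 bound genes was 1447. Among the 696 strongest optimal peaks lay the strongest peaks of 7 of the 31 initiation factor genes, 5 of the 6 elongation factor genes and both eIF5A genes, against 3.93% of all protein-coding genes. The difference between the classes was not tested, since genes are not replicates of a condition.

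**Figure D1:**
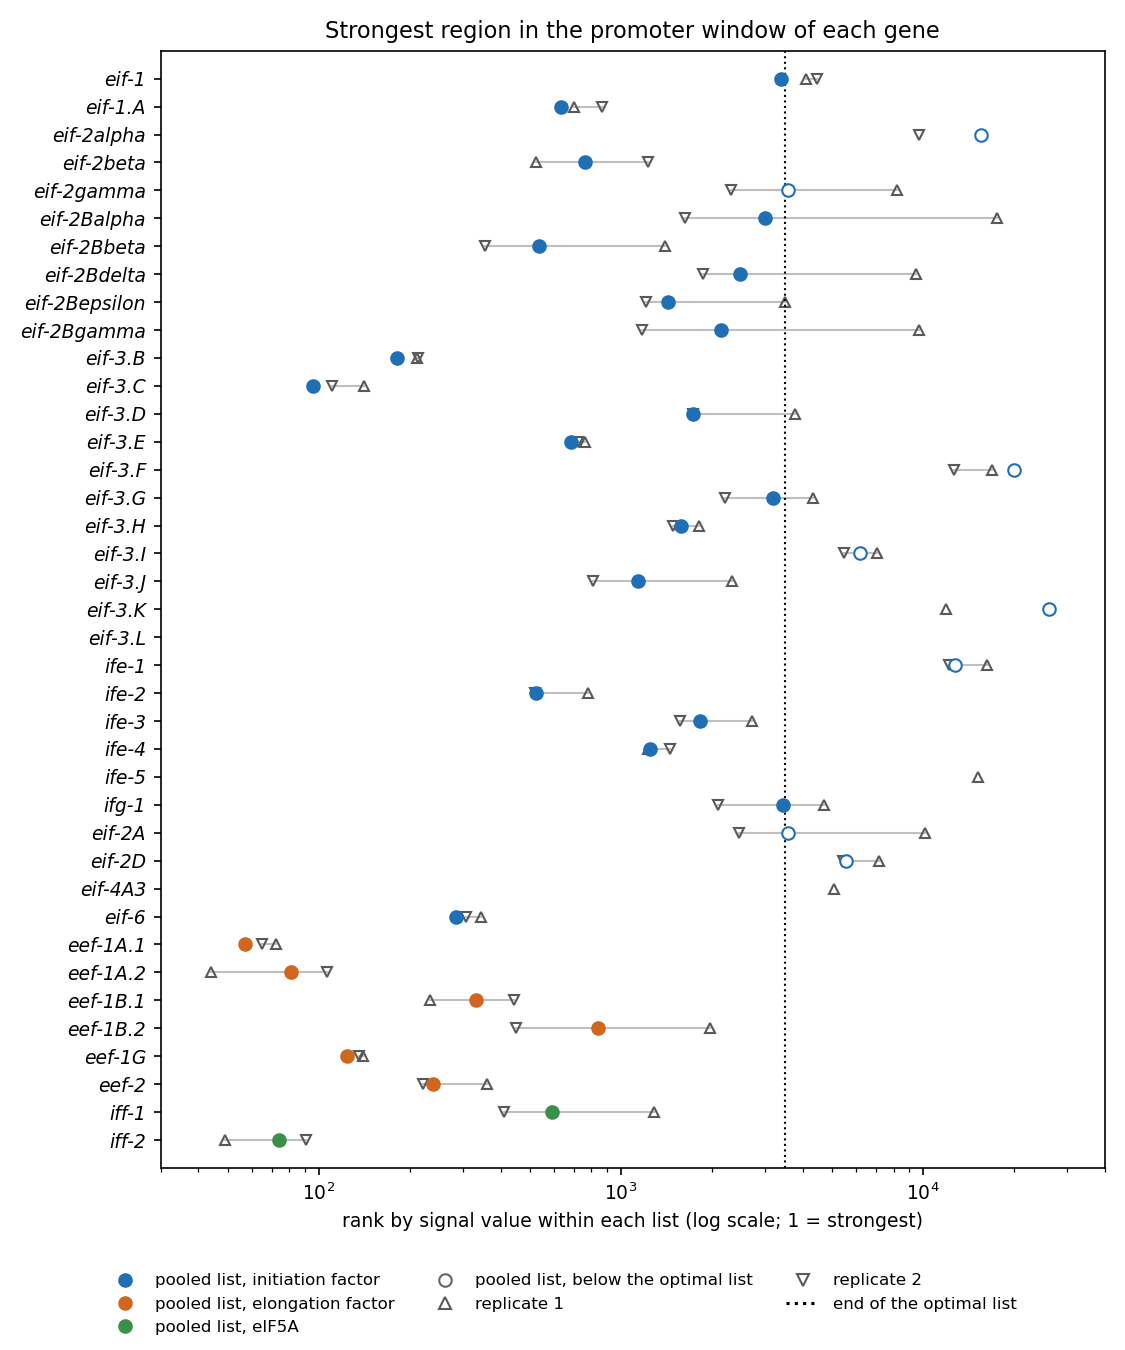
Rank of the strongest region in the promoter window of each of the 39 genes (log axis), in the pooled list (circles, filled where the region is an optimal peak) and in the list of each replicate (triangles), with a dotted line at the end of the optimal list. In the pooled list the elongation factors sit between ranks 57 and 838, while the initiation factors reach from rank 96 to beyond the end of the optimal list.

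Elongation factors carried some of the strongest peaks of the whole set. The pair of genes for eEF1A, the GTPase that brings aminoacyl-tRNA to the ribosome, came first. The peak of eef-1A.1 (WBGene00001168) spanned 6972031 to 6972183 of chromosome III, 388 bp upstream of the start, and ranked 57 with a signal value of 267. It ranked 72 in replicate 1 and 65 in replicate 2. That summit was nearer to the start of rfc-4, on the opposite strand, at 153 bp. The peak of eef-1A.2 (WBGene00001169) spanned 7823178 to 7823473 of chromosome X, with its summit 328 bp upstream, and had rank 81, against 44 in the list of replicate 1 and 107 in that of replicate 2. These paralogues had separate peaks on separate chromosomes, and 99.8% of the promoter windows of each was sequence found in 1 place in the genome.

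The exchange factor eEF1B reloads eEF1A with GTP, and its 3 genes were all bound. The peak of eef-1G (WBGene00008920, the gamma subunit) lay on chromosome V, from 10965549 to 10965844, 22 bp upstream of a start, and ranked 124, with ranks 140 and 136 in replicates 1 and 2. That of eef-1B.1 (WBGene00018846) lay on chromosome III, from 7973266 to 7973561, 28 bp upstream, and ranked 332, with ranks 234 and 443. That of eef-1B.2 (WBGene00012768) lay on chromosome IV, from 15037026 to 15037321, at 157 bp upstream of a start, and ranked 838, with ranks 1970 and 450. It was the weakest of the elongation factors and the one on which the replicates were furthest apart. The gene for eEF2, the GTPase of translocation, had its peak on chromosome I, from 9163377 to 9163672, with the summit 6 bp upstream of a start of eef-2 (WBGene00001167). It had rank 240, with 361 for replicate 1 and 222 for replicate 2.

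The eIF5A genes were bound as well. This small protein, which carries the modified residue hypusine, was named for initiation and is now known to act in elongation and termination. The peak of iff-2 (WBGene00002065) spanned 8561371 to 8561483 of chromosome II, 77 bp upstream, and ranked 74, with ranks 49 and 91 in replicates 1 and 2. The peak of iff-1 (WBGene00002064), spanning 9747209 to 9747504 of chromosome III, lay 164 bp upstream and ranked 593, with ranks 1290 and 410. That summit was nearer to the start of cdk-1, a cell cycle kinase gene on the opposite strand, at 115 bp.

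Of eIF3, the large scaffold that holds the small subunit and recruits the mRNA, 7 of 11 genes were bound. The strongest was eif-3.C (WBGene00001226), on chromosome I from 9979866 to 9979967, 233 bp upstream, at rank 96 and at ranks 141 and 111 in replicates 1 and 2. Next was eif-3.B (WBGene00001225), on chromosome II from 14795006 to 14795301, 250 bp upstream, at rank 182 and at ranks 211 and 213. In its windows 78.4% of the sequence was found in 1 place in the genome. The gene eif-3.E (WBGene00001228), on chromosome I from 10642326 to 10642621, 193 bp upstream, ranked 682, with ranks 764 and 720. For these 3 genes the replicates placed the peak at close ranks. The other bound eIF3 genes were weaker, with eif-3.J at rank 1138, eif-3.H at 1587, eif-3.D at 1737 and eif-3.G at 3185.

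The 4 eIF3 genes that were not bound were eif-3.F, eif-3.I, eif-3.K and eif-3.L. The strongest pooled region in the window of eif-3.I ranked 6198, that of eif-3.F ranked 20100 and that of eif-3.K ranked 26184. No list held a region for eif-3.L, but only 3.13% of its promoter windows is sequence found in 1 place in the genome. Absent binding and reads that could not be placed cannot be told apart there. With eif-3.L left aside, subunits of 1 complex thus ranged from rank 96 to rank 26184 in the pooled list.

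The GTPase eIF2 carries the initiator tRNA, and only the gene of its beta subunit was bound. The peak of eif-2beta (WBGene00010560) spanned 8027820 to 8028115 of chromosome I, at 176 bp upstream, and had rank 759, with 524 for replicate 1 and 1227 for replicate 2. That distance is to an internal start, since the summit lay 784 bp downstream of the first start of the gene, inside it. With only the first start of each gene counted, eif-2beta was not bound, which leaves 0 of the 3 eIF2 genes. The alpha subunit, whose phosphorylation restrains initiation under stress, had 1 pooled region in the windows of eif-2alpha, at rank 15594. The nearest optimal peak to that gene was 1752 bp upstream, outside the window, at rank 816. The gamma subunit gene eif-2gamma fell just short by rank. Its strongest pooled region ranked 3579, but the summit lay 995 bp upstream, at the edge of the window. The list of replicate 1 ranked the gene's best region 8237, while that of replicate 2 ranked its best 2320.

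All 5 genes of eIF2B, the exchange factor that recycles eIF2, were bound, but their ranks differed between the replicates. The optimal ranks were 536 for eif-2Bbeta (WBGene00012950, on chromosome I from 11893737 to 11894032, 158 bp upstream), 1430 for eif-2Bepsilon, 2153 for eif-2Bgamma, 2481 for eif-2Bdelta and 3014 for eif-2Balpha. At the same summits, replicate 1 ranked eif-2Bbeta 1400, eif-2Bepsilon 3498 and eif-2Bdelta 9486, where replicate 2 ranked them 355, 1209 and 1879. For eif-2Bgamma the ranks were 11072 in replicate 1 and 1178 in replicate 2, and for eif-2Balpha they were 17573 and 1634. Each of the 5 genes was ranked higher in replicate 2. Among all bound genes with a region of both replicates within 100 bp of the summit, 58.2% were ranked higher in replicate 2, and among bound initiation factors it was 14 of 19.

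Base composition moved with this difference. The 151 bp centred on the summit had 24.5% G and C for eif-2Balpha, 31.8% for eif-2Bepsilon, 33.8% for eif-2Bbeta, 35.8% for eif-2Bgamma and 37.1% for eif-2Bdelta, against a median of 43.7% over all optimal peaks. The 3229 optimal peaks with a region of both replicates were put into 5 groups of nearly equal size by this share. In the group lowest in G and C (19.9 to 37.1%), 75.5% of peaks were ranked higher in replicate 2, with a median log2 ratio of the rank in replicate 1 to that in replicate 2 of 0.71. In the highest group (50.3 to 70.9%), 22.2% were ranked higher in replicate 2 and the median log2 ratio was -0.92. For the eIF2B genes this log2 ratio was 1.53 to 3.43. At the other end, eef-1A.2, with 55.0% G and C, had a log2 ratio of -1.28, eef-1B.1, with 54.3%, had -0.92, and iff-2, with 54.3%, had -0.89. Other members did not follow the order of base composition. The log2 ratio was 0.17 for eif-6, with 33.1% G and C, and -1.23 for eif-2beta, with 39.1%. It was 1.65 for iff-1, with 47.0%, and 0.96 for eif-3.G, with 48.3%. The part of base composition in the ranks of these genes was not tested.

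**Figure D2:**
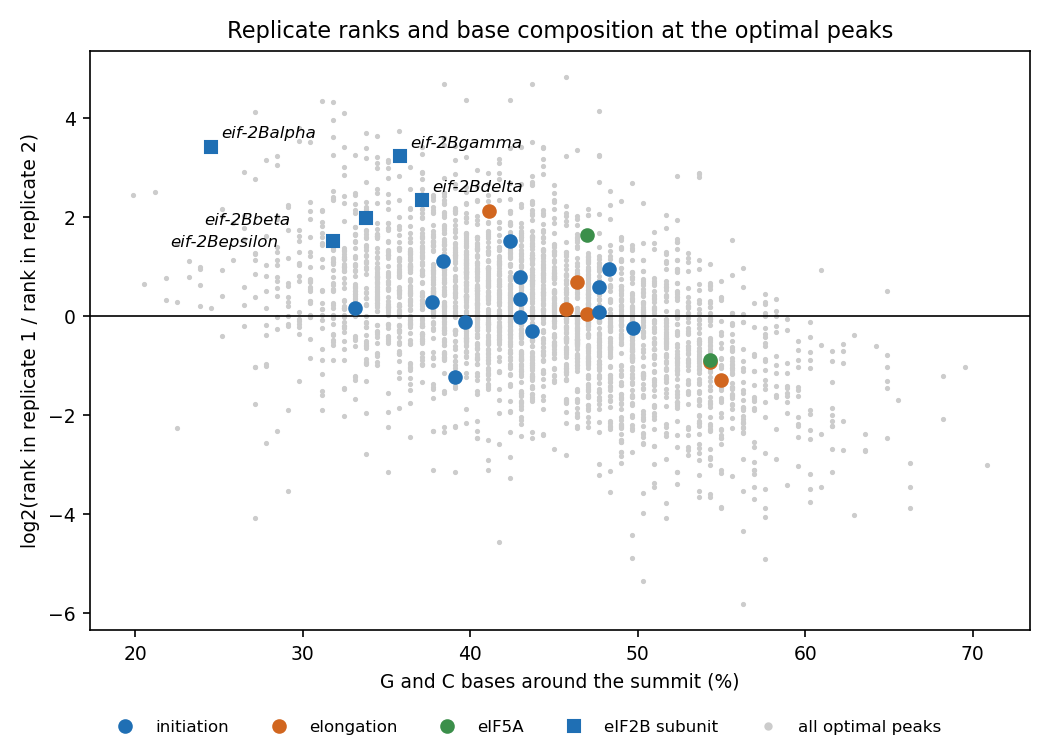
Share of G and C bases around the summit (x axis, percent) against the log2 ratio of the ranks in replicates 1 and 2 (y axis, positive where replicate 2 ranked the site higher) for the 3229 optimal peaks with a region of both replicates (grey) and the bound translation factor genes (coloured). The 5 eIF2B genes (squares) lie between 24.5 and 37.1% on the x axis and between 1.53 and 3.43 on the y axis, and the grey points fall from left to right.

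Of the 5 genes for eIF4E, the protein that binds the mRNA cap, 3 were bound. The peak of ife-2 (WBGene00002060) spanned 382755 to 383050 of chromosome X, 194 bp upstream, and ranked 525, with ranks 782 and 521 in replicates 1 and 2. The gene ife-4 ranked 1246 and ife-3 ranked 1836. The 500 kb around ife-4 on chromosome X held 40 optimal peaks and those around ife-2 held 24, against a median of 20 around all bound genes. The median was also 20 for bound genes on chromosome X. Over the bound members the count ran from 9, for eef-1B.2, to the 40 of ife-4, with 37 for eif-3.D on chromosome III. Around ife-3 the count was 11, but that gene lies at bases 6584 to 7828 of chromosome V. The chromosome end cuts the stretch there to little more than 250 kb, so its count is not comparable. The others, ife-1 and ife-5, were not bound. The best pooled region of ife-1 ranked 12776, and the nearest optimal peak lay 887 bp downstream of its start, at rank 666. The gene ife-5 had only a region of replicate 1, at rank 15267. The eIF4G gene ifg-1, whose product joins the cap-binding protein to eIF3, was the weakest bound member at rank 3437. Its summit was 656 bp upstream, and it lay 50 bp inside the neighbouring gene M110.3, past that gene's start. No region of either replicate lay within 100 bp of that summit, but regions of both lay within 200 bp. The best regions in the windows of ifg-1 ranked 4720 in replicate 1 and 2102 in replicate 2.

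The genes for eIF1 and eIF1A, small proteins of start codon selection, were both bound but at different ranks. The peak of eif-1.A (WBGene00019162) covered 4810430 to 4810725 on chromosome IV, its summit 356 bp upstream, and ranked 633, with ranks 703 and 866 in replicates 1 and 2. That of eif-1 ranked 3402, with ranks 4103 and 4449. The summit of eif-1 was 421 bp from its own start and 3 bp from that of vps-24. Among the remaining genes, eif-6, whose product keeps the large ribosomal subunit from joining early, ranked 286, with ranks 345 and 307, on chromosome I from 12968454 to 12968749. That summit lay 344 bp upstream of eif-6 and 322 bp upstream of the proteasome gene pbs-2 on the opposite strand. Not bound were eif-2A and eif-2D, whose mammalian counterparts can deliver tRNA to the ribosome by alternative routes, and eif-4A3, the helicase of the exon junction complex. Their best pooled regions ranked 3571 for eif-2A and 5546 for eif-2D, and eif-4A3 had only a region of replicate 1, at rank 5089.

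The limit of the optimal list therefore ran through the initiation factors. Just inside it were eif-1 at rank 3402 and ifg-1 at 3437. Just outside were eif-2A at 3571 and eif-2gamma at 3579, the latter with its summit at the edge of the window. Of the 11 genes not bound, 8 had at least 1 pooled region in a window, against 34.9% of all genes not bound. Over all members it was 36 of 39, against 44.7% of all protein-coding genes.

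Each replicate's list, cut to its 3484 strongest regions, gave a different count for the initiation factors. Replicate 1 alone gave 12 of 31 initiation factors and 6 of 6 elongation factors, where 14.1% of all genes were bound. Replicate 2 alone gave 21 of 31 and 6 of 6, where 14.9% of all genes were bound. The 8 bound genes absent from replicate 1's list were eif-1, eif-3.D, eif-3.G, ifg-1 and the eIF2B genes other than eif-2Bbeta. Replicate 2's list lacked eif-1 and added eif-2A and eif-2gamma. At the bound genes as a whole, 27 of 28 had a region of both replicates within 100 bp of the summit (96.4%, against 95.0% of all bound genes). In 20 of the 28 both regions were among the 3484 strongest (71.4%, against 72.6%), which included 12 of 20 initiation factors, 6 of 6 elongation factors and both eIF5A genes. These shares follow in part from how the authors selected the optimal peaks.

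**Figure D3:**
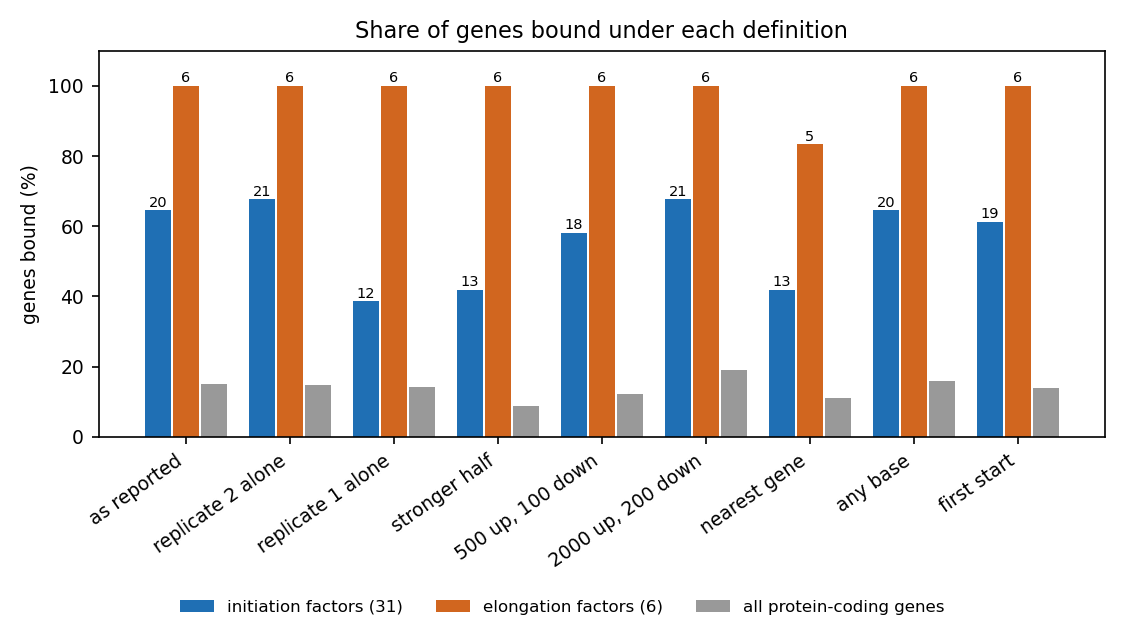
Share of genes bound (percent) for the 31 initiation factors (blue), the 6 elongation factors (orange) and all 19973 protein-coding genes (grey) under 9 definitions of bound, with the number of bound factors above the bars. The elongation factors stay at 6 of 6 except with nearest-gene assignment (5), and the initiation factors vary between 12 and 21.

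All 28 summits lay upstream of the nearest start of the bound gene, as did 2864 of the 3007 over all bound genes. That of eif-2beta lay inside the gene (1 of 28, against 11.7% of all bound genes). The median distance was 210 bp, against 222 bp over all bound genes, and 26 of 28 were within 500 bp upstream (92.9%, against 76.3%). The exceptions were eif-3.J at 932 bp and ifg-1 at 656 bp. The initiation factors had a median of 242 bp and the elongation factors one of 92.5 bp, with ranges of 27 to 932 bp and 6 to 388 bp that overlap. Each of the 28 genes had 1 optimal peak in its windows, as did 95.4% of all bound genes, and the 28 genes had 28 separate peaks.

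**Figure D4:**
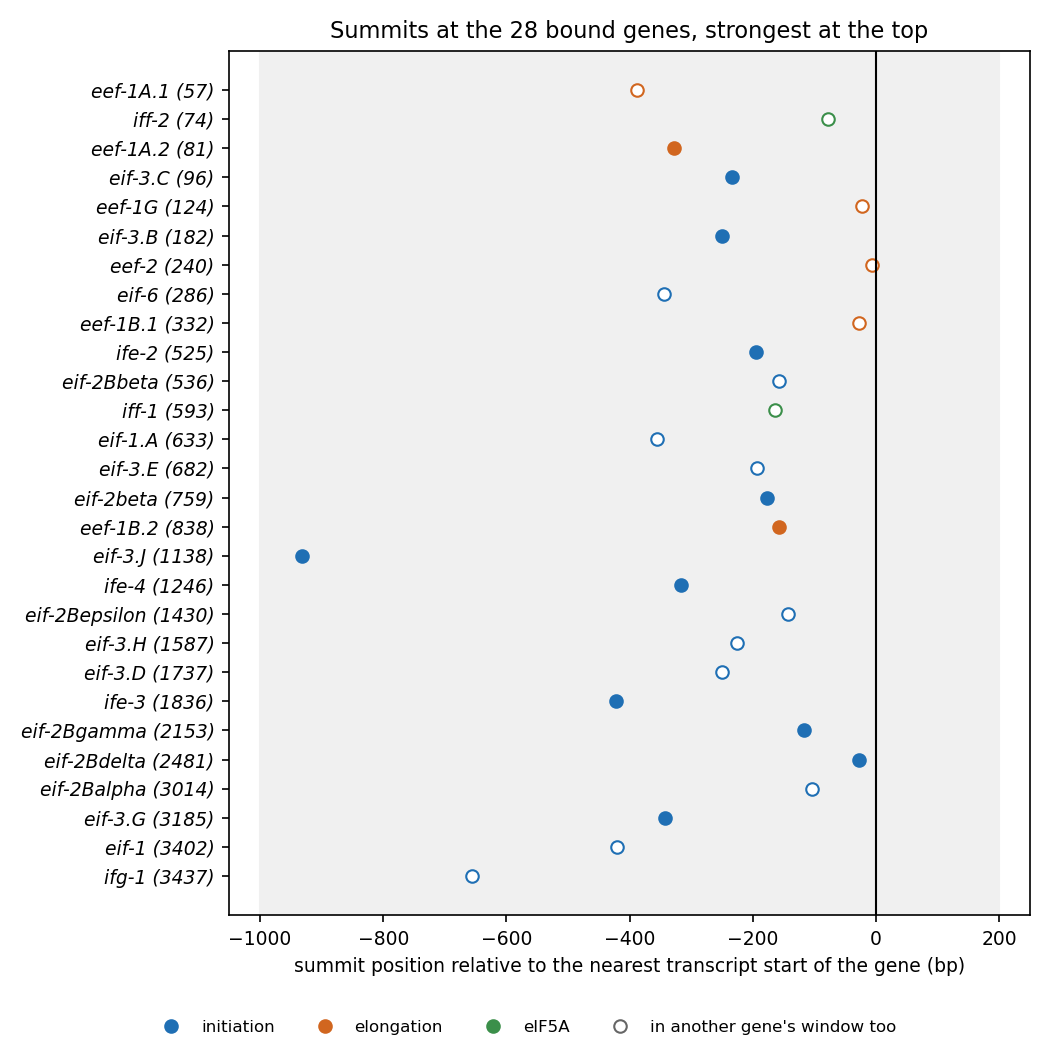
Summit position relative to the nearest transcript start (x axis, bp, negative upstream) for the 28 bound genes, ordered by rank (in brackets), with the promoter window shaded and open circles where the summit also lies in the window of another gene. All 28 points are left of the start, and eef-2, eef-1G, eif-2Bdelta and eef-1B.1 lie within 28 bp of it.

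Many of these summits lay in promoter windows of genes on opposite strands, so the deposited positions do not say which gene a peak belongs to. In 16 of 28 cases (57.1%, against 52.8% of all bound genes) the summit also lay in the promoter window of another gene. In each of these 16 a gene on the opposite strand was included, where 49.7% of all bound genes had one. These included 10 of the 20 bound initiation factors and 4 of the 6 elongation factors. Over all bound genes another gene's start was nearer for 818 of 3007, and here it was for 9 of the 28. The elongation factor among them was eef-1A.1, whose summit lay 153 bp upstream of rfc-4, a replication factor C gene, and 388 bp upstream of eef-1A.1. The initiation factors were eif-1, eif-2Bbeta, eif-2Bepsilon, eif-3.D, eif-3.H, eif-6 and ifg-1, and the last was iff-1. In the others the translation factor start was nearer, as for eef-1B.1 at 28 bp, with aco-2, the mitochondrial aconitase gene, at 303 bp. Likewise eef-2 was at 6 bp with clsp-1 at 259 bp, and eef-1G at 22 bp with ctf-4 at 158 bp. Assigning each summit only to the gene with the nearest start left 13 of 31 initiation factors and 5 of 6 elongation factors bound, against 11.0% of all genes. Keeping only the 1742 strongest optimal peaks left 13 of 31 and 6 of 6, against 8.81% of all genes.

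Many worm genes lie in operons, in which a gene close behind another on the same strand is transcribed from the promoter of the first. Of the 39 genes, 7 had the end of a same-strand gene within 500 bp upstream of their first start, and 3 of these were bound (eif-2Bgamma, eif-3.C and eef-1B.2). The 4 not bound were eif-2alpha, 133 bp behind phb-1, eif-2gamma, 313 bp behind tbca-1, eif-3.F, 116 bp behind wbp-2, and ife-5, 65 bp behind Y57A10A.29. Of the 32 genes with no such neighbour, 25 were bound. Over all protein-coding genes the shares were 11.0% with such a neighbour and 16.0% without. The annotation used does not mark operons.

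Motifs were searched on both strands in the 151 bp centred on each summit. The core ATCAT or GTCAT was found at 9 of the 28 bound genes (32.1%), against 42.5% of all optimal peaks and 42.8% of the 696 strongest. By class it was at 6 of 20 initiation factors and 2 of 6 elongation factors. The 9 genes were eif-2Balpha, eif-2Bdelta, eif-2Bepsilon, eif-3.E, eif-3.G, eif-6, eef-1A.1, eef-1B.1 and iff-1. The longer form TATCAT or TGTCAT, which contains the core, was at eif-3.E and iff-1 (7.14%, against 16.4% of all optimal peaks). The AP-1 type site TGACTCA or TGAGTCA was at 0 of 28, against 2.27%, and GATAA, the core of GATA factor sites, was at 6 of 28 (21.4%, against 22.7%). The median share of G and C in these windows was 43.0%, against 43.7% over all optimal peaks. Whether the motif shares of so few peaks differ from those of all peaks was not tested.

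Other genes of translation and of its control, listed by name, were bound at 20 of 27, a share of 74.1% against 15.1% of all protein-coding genes. Of the 30 names listed, 3 were absent from the annotation. The share depends on which names were listed, and the lists were chosen with earlier results of these data known. With a window of 500 bp upstream to 100 bp downstream, 14 of the 27 were bound, against 12.2% of all genes. Nearest-gene assignment also left 14, against 11.0%. Around the mRNA cap, the S6 kinase gene rsks-1 ranked 138, ifet-1, the gene of an eIF4E-binding repressor, ranked 150, larp-1 ranked 186 and drr-2, the eIF4H gene, ranked 194. Their summits lay 616 bp upstream for rsks-1, 507 bp for ifet-1, 651 bp for larp-1 and 159 bp for drr-2. The genes of the helicase eIF4A (inf-1, rank 1801) and of the poly(A)-binding proteins (pab-1, rank 952, and pab-2, rank 2141) were bound at lower ranks. The termination factor genes erfa-3 (rank 438) and erfa-1 (rank 1187), the rescue factor gene pelo-1 (rank 721) and the recycling factor gene abce-1 (rank 3382) were bound. So were abcf-2 (rank 208, 881 bp upstream), abcf-3 (rank 507, 173 bp) and abcf-1 (rank 1693, 204 bp). For control of eIF2, gcn-1 (rank 1214) and the kinase gene pek-1 (rank 2731) were bound, while the kinase gene gcn-2 was not, its best pooled region being at rank 3868. The TOR partner daf-15 ranked 1230, and let-363, the TOR kinase gene, had no region in any list. The eEF2 kinase gene efk-1 was not bound. Of the genes that make hypusine on eIF5A, dohh-1 was bound at rank 2792 and dhps-1 was not. Among mitochondrial elongation factors tufm-1 (rank 1428) and gfm-1 (rank 1541) were bound, and tufm-2 and tsfm-1 were not. The last of the 7 genes not bound was hbs-1.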

How the data were processed

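The deposited files are lists of genomic regions in narrowPeak layout. Per the deposited readme, a replicate's list was made from its own alignments and a control alignment common to both, the pooled list from both replicates together, and the optimal list from these 3 by an irreproducible discovery rate (IDR) procedure. The signal value deposited by the authors for each region was used only to rank regions within a list. For the caller, the aligner, the IDR threshold and the depth, the sources used here say nothing. The ce11 lists were used with Ensembl release 115 (WBcel235, the same assembly) and the RefSeq genome, in which all 39 coding sequences start with ATG at the annotated position. The ce10 lists were not used.

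Summits were set against all annotated transcript starts with Python 3.11.15 and numpy 2.4.6, and exact (Clopper-Pearson) intervals came from statsmodels 0.14.6. The assignment was tested on simulated data. Uniqueness is the share of 31-base words found in 1 place in the genome. Every member is accounted for. Coordinates are given for members of rank 1000 or better, and only some of the genes that share a member's summit are named. No sequence of chromosome I is printed. The members and lists were chosen with earlier results of these data known, and no p-values were computed.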

Additional observations from a re-analysis of the deposited data

How the results depend on the processing

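The count of bound initiation factors, 20 of 31 as reported, fell to 13 with each summit assigned only to the nearest gene and to 13 with the 1742 strongest optimal peaks, and 1 replicate's list alone gave 12 to 21. The cause was not tested, beyond fewer peaks in the one case and fewer genes per peak in the other. The median rank of the bound initiation factors was 682 with the 1742 strongest peaks, which leave out weaker ranks by construction, and 773 to 1227 with 1 replicate alone. The median rank of the bound elongation factors was 240 with nearest-gene assignment, which drops eef-1A.1, and 179 to 187 with 1 replicate alone. All other counts stayed within 1.5 times the reported ones under the window, start, overlap and class alternatives, and 12 members were bound under all 9 definitions. No paired analysis was possible because there is 1 group and no test. Depth, which is unknown, limits what an absent region shows.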
